A study of Homo sapiens with 6 samples.

Results

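The histone genes of MDA-MB-231 cells, an established human triple-negative breast cancer (TNBC) cell line, were followed by RNA sequencing after treatment with BRL-50481, an inhibitor of the cAMP phosphodiesterase PDE7A. The members were chosen by gene symbol, as every HIST1 to HIST4 cluster gene, every H2AF and H3F3 gene, H1F0 and H1FX. Of 33 symbols that matched, 1 pseudogene was dropped by its name, which left 32 of the 15651 genes in the table. There were 23 replication-dependent genes, of which 19 lie in the HIST1 cluster, 3 in HIST2 and 1 in HIST4, and 9 variant histone genes. H3F3A is not analysed here.

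The comparison was of 3 libraries from cells given DMSO, the solvent, with 3 libraries from cells given BRL-50481. The treatment text of the labels and the Methods give 50 μM for 72 h, whereas a treatment tag on each sample states 5 μM for 48 h, a difference the sources do not resolve. All 6 libraries came from this 1 line, grown in the same medium. The question for the histone genes was whether the replication-dependent clusters and the variants changed with the inhibitor, and whether they changed alike.

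Core histones H2A, H2B, H3 and H4 form the protein spool around which DNA is wound, and linker histone H1 binds the DNA between spools. Replication-dependent histone genes are clustered, have no introns and are transcribed mainly in S phase, and their mRNAs end in a stem-loop in place of a poly(A) tail. Variant histone genes lie outside the clusters, mostly make polyadenylated mRNAs, and are expressed through the cell cycle. Because the stem-loop mRNA has no poly(A) tail, it is poorly recovered when RNA is selected with oligo-dT, the method the labels describe, while the series record describes ribosomal RNA depletion. Which of these was used, and its part in the levels given here, was not tested.

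Between 30750573 and 33446984 reads on genes were recovered per library. DMSO replicate 1 stood apart from the other libraries, with a residual SD of 0.142 on the log2 scale against 0.0791 to 0.119 in the others, so results that turn on it are given with and without it. VIM, CD44, AXL and EGFR, which mark this line, had normalized counts of 6018 or more in each library, whereas PGR reached at most 7.75 and CDH1 at most 104.8. EPCAM had been listed with PGR and CDH1 as low in this line, but it was not low. It reached 772.9, and its mean of 723.4 lay near the median of 725.3 over all genes tested. ESR1 is not analysed here. A normalized count is the number of reads on a gene divided by the size factor of its library, so it measures a gene relative to the other RNAs of that library. In these bulk samples, fewer cells in a phase of the cell cycle and less RNA per cell cannot be told apart.

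The stem-loop sequences are shown first, because they mark the replication-dependent class. In the transcript sequences of GENCODE release 44, a stem of 6 bases around a loop of 4 bases was searched for within 150 bases after the stop codon of the canonical transcript, with GG and then 4 pyrimidines as the first arm. The stem is in capitals and the loop in lower case. The sense strand is given 5′ to 3′.
12 genes including HIST1H1C and HIST1H2AC: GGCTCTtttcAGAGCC
HIST1H2BC, HIST1H2BD, HIST1H2BJ and HIST1H2BK: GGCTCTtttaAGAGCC
HIST2H2AC: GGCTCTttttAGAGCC
HIST1H4B, HIST1H4C, HIST1H4H and HIST4H4: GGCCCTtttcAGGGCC
H2AFX: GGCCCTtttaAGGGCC

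A match was present in 21 of the 23 replication-dependent genes and in 1 of the 9 variants, H2AFX. HIST1H2AG had no match, and HIST2H2BA, a pseudogene without an annotated stop codon, could not be searched. Across all canonical protein-coding transcripts, 76 of 19605 (0.388%) held such a match, and 92.1% of those 76 carry a histone symbol. The canonical transcript ended 4 to 8 bases after the whole stem-loop in all but 2 of the genes with a match. In these 2, HIST2H2BE and H2AFX, it ran on for 1729 and 1024 bases. Some genes have further annotated transcripts, whose ends were not examined. HIST1H2BD has 2 transcripts with 861 exon bases, against a canonical length of 486, and HIST1H2AC has 3 with 1668, against 519. HIST2H2BA, annotated by RefSeq as a transcribed pseudogene (H2BP1), was kept because the rule on symbols does not drop it.

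Of the 32 genes, 30 passed the filter of the Methods, which asks 3 or more libraries to reach a normalized count of 4, and were tested, and HIST1H4B and HIST4H4 did not pass. Histone variants H1F0, H1FX and H2AFV and the clustered gene HIST1H2AC were higher in BRL-50481, whereas H2AFZ, H3F3B, HIST1H2BD and HIST1H2AJ were lower. By limma with Benjamini-Hochberg adjustment over 15246 genes, this is 4 higher and 4 lower of 30 histone genes called, that is at an adjusted p under 0.05, where 28.9% of all genes tested were higher and 29.8% were lower. The variants had 3 higher and 2 lower of 9, and the replication-dependent genes 1 higher and 2 lower of 21. HIST1H2AJ passed the filter only through its DMSO libraries, so it had to differ and its call adds nothing to these counts. The groups did not overlap in 10 of the 30 genes, against 64.2% of all genes tested.

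**Figure D1:**
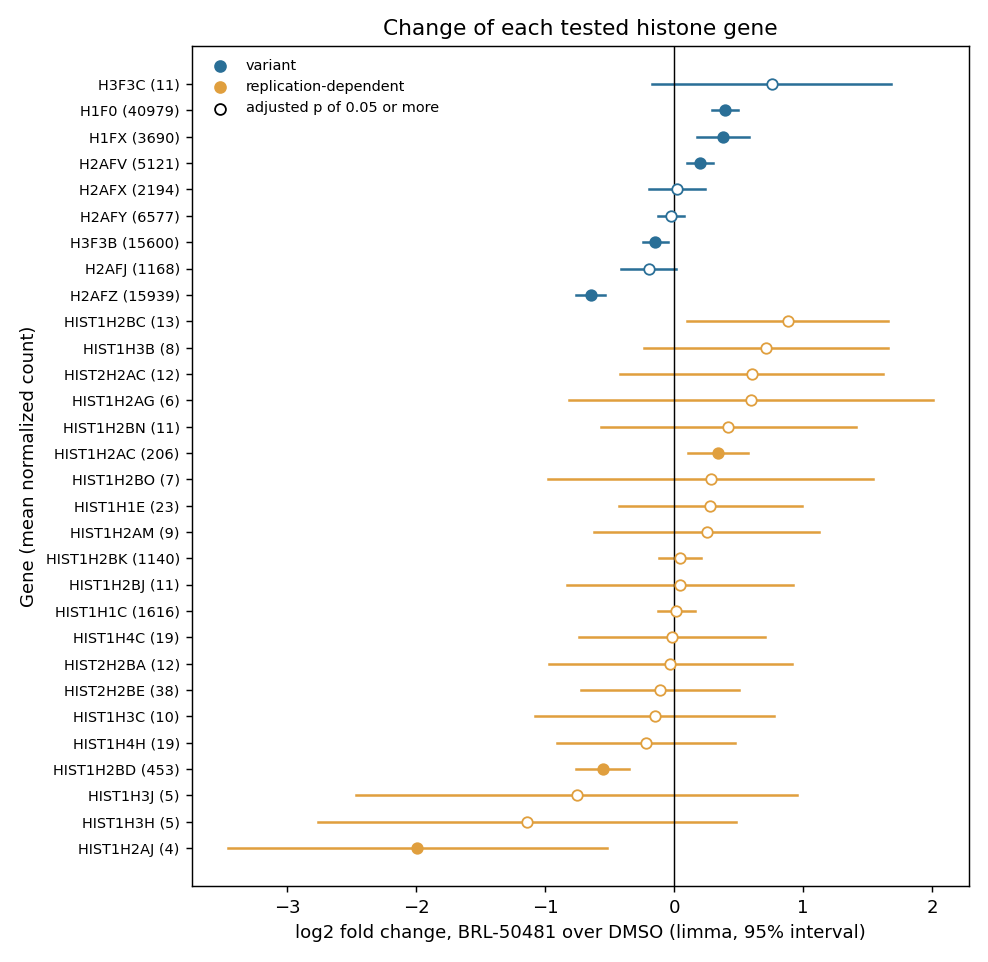
Log2 fold change (x axis, BRL-50481 over DMSO, limma, with 95% intervals) of the 30 histone genes tested (y axis, with the mean normalized count in parentheses), blue for variants and orange for replication-dependent genes. Filled points have an adjusted p under 0.05, and the replication-dependent genes with few reads have the widest intervals.

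The number of reads behind a gene differed between the classes. The 8 variants other than H3F3C had mean normalized counts of 1168 to 40979, whereas 4 replication-dependent genes lay between 206.2 and 1616 and the other 19 at 38.4 or less. Among histone genes with a mean of at least 100, 7 of 12 (58.3%) were called in either direction, where 66.9% of all genes at that depth were called. Among those under 100, 1 of 18 (5.56%) was called, where 33.8% of all such genes were called. The gene called there is HIST1H2AJ, which passed the filter only through its DMSO libraries, so this share is not read further. The standard error of the log2 fold change ran from 0.045 to 0.11 for the first set and from 0.28 to 0.79 for the second, so a change the size of that of H2AFZ was not detectable for most of the second set. The median log2 fold change was 0.04 for the replication-dependent genes, 0.02 for the variants and 0.01 for all genes tested. Over the alternatives the first ran from -0.052 to 0.157 and the second from -0.052 to 0.152, so neither median had a settled sign.

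**Figure D2:**
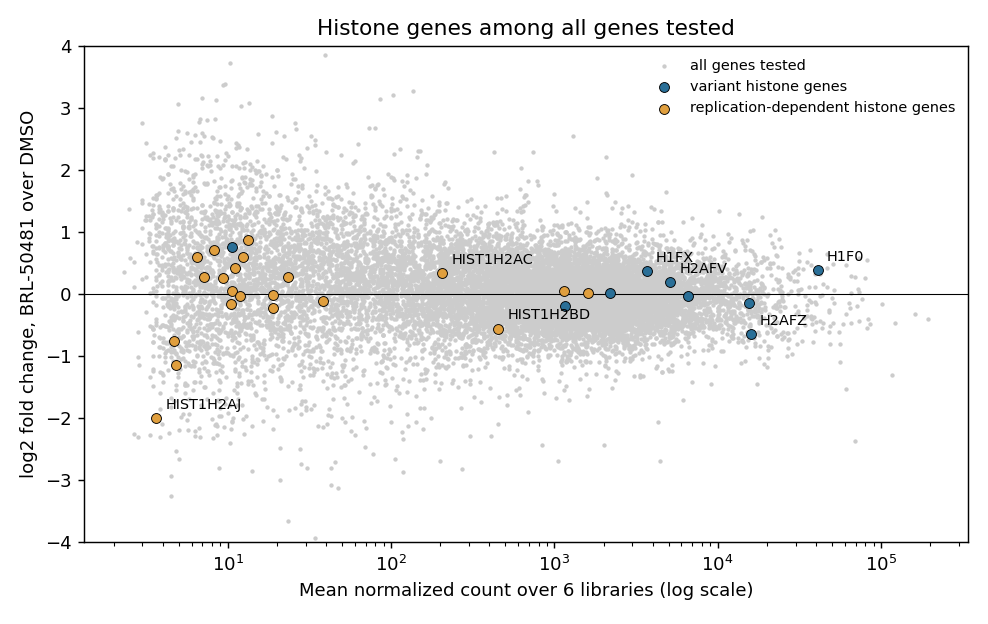
Log2 fold change (y axis, BRL-50481 over DMSO) against the mean normalized count over the 6 libraries (x axis, log scale) for all 15246 genes tested (grey), variant histone genes (blue) and replication-dependent histone genes (orange). Most orange points lie left of a mean of 100, and the 5 variants called lie between 3690 and 40979.

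H2AFZ and H2AFV encode the near-identical paralogs of H2A.Z, the H2A variant placed at promoters by the SRCAP and EP400 complexes. H2AFZ lies on chromosome 4 (hg38, 99948086 to 99950355, minus strand, 5 exons). Its normalized counts were 17888, 20507 and 20040 in DMSO and 12562, 12228 and 12410 in BRL-50481. All treated libraries were below all controls, and H2AFZ fell by 0.65 on the log2 scale (SE 0.053, adjusted p = 4.25e-07 by limma), the smallest adjusted p among the histone genes.

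H2AFV, on chromosome 7 (44826791 to 44848087, minus strand, 5 exons), had 4683, 4892 and 4715 in DMSO and 5490, 5606 and 5340 in BRL-50481. It was higher in all treated libraries, by 0.20 on the log2 scale (SE 0.047, adjusted p = 0.00235 by limma). The ratio of H2AFZ to H2AFV counts was 3.82, 4.19 and 4.25 in DMSO and 2.29, 2.18 and 2.32 in BRL-50481. On the log2 scale the ratio averaged 2.03 ± 0.084 over the 3 controls and 1.18 ± 0.048 over the 3 treated libraries (± SD), with an exact two-sided permutation p of 0.1, the smallest that 3 against 3 allows. The ratio was chosen after the values of both genes had been seen. Both calls held in 18 of 18 alternative analyses.

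The promoters of these 2 genes are shown because they differ in direction of change although the proteins are near-identical. They are the 250 bases before and 50 bases after the start of the gene in RefSeq (GRCh38.p14), with CCAAT (the CCAAT box) and TATAAA (the TATA box) in capitals on either strand.
H2AFZ, chr4:99950226-99950525, minus strand: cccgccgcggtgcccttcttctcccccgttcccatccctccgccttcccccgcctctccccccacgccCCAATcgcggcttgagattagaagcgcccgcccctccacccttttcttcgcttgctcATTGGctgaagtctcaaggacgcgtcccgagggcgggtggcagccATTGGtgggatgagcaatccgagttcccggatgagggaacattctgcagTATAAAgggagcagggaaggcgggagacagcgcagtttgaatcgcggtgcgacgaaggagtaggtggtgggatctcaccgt
H2AFV, chr7:44848038-44848337, minus strand: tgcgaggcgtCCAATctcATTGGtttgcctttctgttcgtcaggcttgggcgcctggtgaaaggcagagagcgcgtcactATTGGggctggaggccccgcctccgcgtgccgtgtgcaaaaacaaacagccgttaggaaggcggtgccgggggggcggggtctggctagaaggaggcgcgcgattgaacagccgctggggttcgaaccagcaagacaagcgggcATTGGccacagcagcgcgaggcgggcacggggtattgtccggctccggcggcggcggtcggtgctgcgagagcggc

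H2AFZ holds 3 CCAAT matches and a TATAAA that begins 31 bases before the start, and H2AFV holds 4 CCAAT matches and no TATAAA in this window. Of the 27 histone genes with a RefSeq promoter, 22 hold CCAAT and 20 hold TATAAA, where 35.7% and 12% of 27305 promoters do. These are matches of letters in a window, with overlapping matches counted for each motif. Windows of neighbouring genes on opposite strands overlap, so the same site can be counted for both genes. The only TATAAA of HIST1H2BC, HIST1H2BO and HIST4H4 begins 220, 214 and 250 bases before the start. In HIST1H2BC and HIST1H2BO it is the TATAAA of the neighbouring HIST1H2AC and HIST1H2AM.

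H1F0 and H1FX encode replication-independent linker histones, the first known for high levels in cells that have stopped dividing or are differentiating. H1F0 (chromosome 22, 37805229 to 37807432, plus strand, 1 exon) had the highest count of the histone genes, 33616, 36195 and 36504 in DMSO and 47161, 44928 and 47471 in BRL-50481. Each treated library exceeded each control, and the log2 fold change was 0.39 (SE 0.047, adjusted p = 1.19e-05 by limma).

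H1F0 made up 37.8% to 38.6% of all histone gene counts in the DMSO libraries and 47.5% to 48.4% in the BRL-50481 libraries. H1FX (chromosome 3, 129314771 to 129316286, minus strand, 1 exon) had 2714, 3300 and 3639 in DMSO and 4093, 3804 and 4592 in BRL-50481. The groups did not overlap and the log2 fold change was 0.38 (SE 0.094, adjusted p = 0.00368 by limma), though the controls varied more than those of H1F0. In limma without a trend the adjusted p of H1FX was 0.057, and over all its alternatives it ran from 1.4e-07 to that value. Without DMSO replicate 1, the lowest control, the log2 fold change of H1FX was 0.26 (adjusted p = 2.68e-05 by limma).

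**Figure D3:**
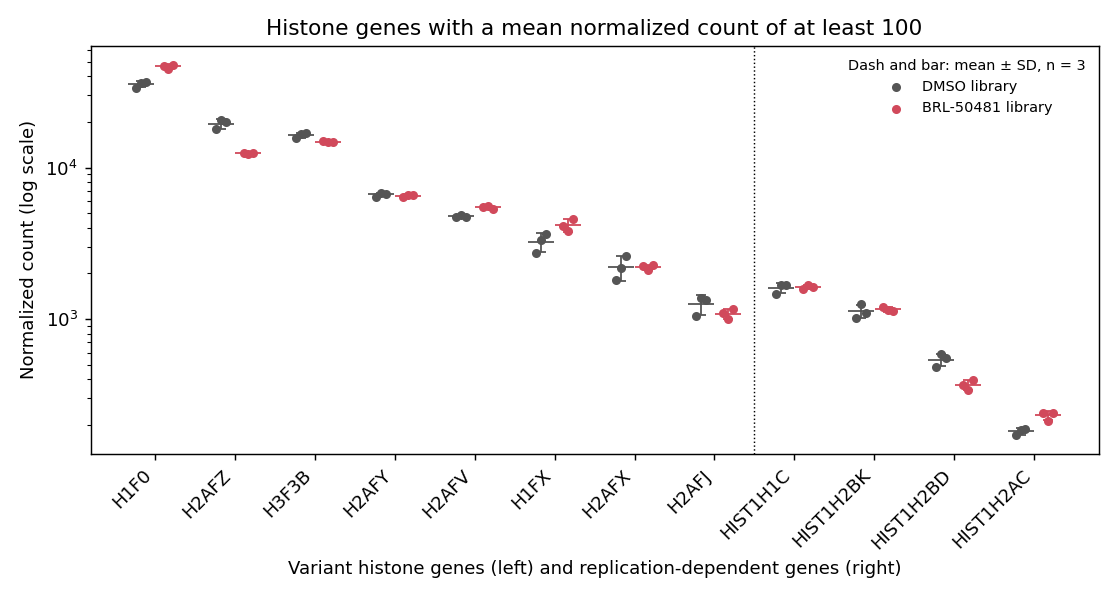
Normalized count (y axis, log scale) in each library of the 12 histone genes with a mean of at least 100, for DMSO (grey) and BRL-50481 (red), with the mean ± SD of 3 libraries as a dash and bar. Variants are left of the dotted line, where H1F0 and H2AFV lie higher and H2AFZ lower in every treated library.

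H3F3B, which encodes the replacement histone H3.3, lies on chromosome 17 (75776434 to 75785893, minus strand, 4 exons). It had 15671, 16679 and 16817 in DMSO and 15017, 14689 and 14727 in BRL-50481. The treated libraries were all lower, but by little, at -0.15 on the log2 scale (SE 0.045, adjusted p = 0.0133 by limma). The call was lost in 5 of 18 alternatives, quantile normalization (adjusted p = 0.145), limma without a trend (0.0527) and without DMSO replicate 3, BRL-50481 replicate 2 or BRL-50481 replicate 3 (0.0784, 0.0542 and 0.0625), and its adjusted p over all 18 ran from 2.08e-05 to 0.145.

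H3F3C, a retrotransposed copy that encodes H3.5, had normalized counts of 6.95, 4.90 and 11.2 in DMSO and 13.1, 9.07 and 18.4 in BRL-50481. The groups overlapped, and the log2 fold change of 0.75 had a 95% interval from -0.17 to 1.68.

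The remaining H2A variants had intervals that included 0. H2AFY encodes macroH2A1, a variant with a large extra domain linked to silent chromatin, and its log2 fold change was -0.03 with an interval from -0.13 to 0.07. H2AFX encodes the variant phosphorylated at DNA breaks. Its counts were 1795, 2179 and 2592 in DMSO and 2221, 2116 and 2259 in BRL-50481. The controls thus spanned the treated libraries, and the interval ran from -0.19 to 0.24. The log2 fold change of H2AFX was 0.02, and without DMSO replicate 1 it was -0.11 (adjusted p = 0.0694 by limma).

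H2AFJ, known for its accumulation in senescent cells, had 1039, 1382 and 1330 in DMSO and 1100, 994.2 and 1160 in BRL-50481. The groups overlapped only through DMSO replicate 1, and the log2 fold change was -0.20 (SE 0.099, adjusted p = 0.104 by limma). Without DMSO replicate 1 it was -0.32 with an adjusted p of 1.74e-05, and over all alternatives the adjusted p ran from that value to 0.35.

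Of the replication-dependent genes, HIST1H2BD and HIST1H2AC differed, in opposite directions, whereas HIST1H1C and HIST1H2BK had intervals that included 0. These 4 genes held 93.3% to 94.4% of the replication-dependent counts in each library. HIST1H2BD (chromosome 6, 26158122 to 26171349, plus strand) encodes an H2B, and its counts were 483.2, 582.9 and 553.6 in DMSO and 368.5, 338.4 and 393.5 in BRL-50481. Every treated library was below every control, with a fall of 0.55 on the log2 scale (SE 0.094, adjusted p = 0.000227 by limma) that was called in 18 of 18 alternatives.

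HIST1H2BK (chromosome 6, 27146361 to 27146855, minus strand) encodes another H2B and ends in the same stem-loop as HIST1H2BD. It had 1021, 1249 and 1101 in DMSO and 1197, 1148 and 1124 in BRL-50481. These groups overlapped, with a log2 fold change of 0.05 and an interval from -0.12 to 0.21. The log2 ratio of HIST1H2BD to HIST1H2BK averaged -1.06 ± 0.057 over the controls and -1.66 ± 0.13 over the treated libraries (± SD, n = 3, exact two-sided permutation p = 0.1, the smallest possible), a ratio chosen after the values had been seen. Only 61.9% of the 76-base windows of HIST1H2BK occur once in the genome, so part of its reads may not have been counted.

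HIST1H2AC (chromosome 6, 26124145 to 26139116, plus strand) encodes an H2A and had 170.7, 186.1 and 189.0 in DMSO against 239.6, 213.5 and 238.4 in BRL-50481. All treated libraries were higher, by 0.34 on the log2 scale (SE 0.11, adjusted p = 0.0147 by limma). The call was lost with quantile normalization (adjusted p = 0.0601) and without BRL-50481 replicate 1 or replicate 3 (0.0576 and 0.0581), within a range over all alternatives from 0.00088 to 0.0601. Its exons overlap those of an uncharacterised gene on the same strand.

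HIST1H2BC starts 218 bases from HIST1H2AC on the other strand, so the genes form a divergent pair. Its counts were 10.9, 6.86 and 9.19 in DMSO and 13.1, 17.1 and 22.3 in BRL-50481. The groups did not overlap, but with so few reads the log2 fold change of 0.88 (SE 0.36) had an adjusted p of 0.0511 by limma. It was called higher in 7 of its 17 alternatives, over which the adjusted p ran from 0.0257 to 0.192.

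HIST1H1C, which encodes linker histone H1.2, had 1459, 1680 and 1685 in DMSO and 1586, 1667 and 1618 in BRL-50481. The treated libraries lay within the range of the controls, and the log2 fold change was 0.02 with an interval from -0.13 to 0.16. Set against H1F0, the log2 ratio of H1F0 to HIST1H1C averaged 4.46 ± 0.054 over the controls and 4.84 ± 0.077 over the treated libraries (± SD, n = 3, exact two-sided permutation p = 0.1, the smallest possible), again a ratio chosen after seeing the values. After a loess correction for the length and GC content of transcripts, the log2 fold changes of HIST1H1C and HIST1H2BK became 0.11 and 0.17, with adjusted p-values of 0.0365 and 0.0112 by limma. Their adjusted p-values over all alternatives ran up to 0.981 and 0.862.

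The promoters of HIST1H2BD and HIST1H2AC are given because these are the clustered genes with enough reads that moved. Capitals mark the CCAAT box, the TATA box and, in HIST1H2AC, the octamer (searched as ATTTGCAT), on either strand.
HIST1H2BD, chr6:26157871-26158170, plus strand: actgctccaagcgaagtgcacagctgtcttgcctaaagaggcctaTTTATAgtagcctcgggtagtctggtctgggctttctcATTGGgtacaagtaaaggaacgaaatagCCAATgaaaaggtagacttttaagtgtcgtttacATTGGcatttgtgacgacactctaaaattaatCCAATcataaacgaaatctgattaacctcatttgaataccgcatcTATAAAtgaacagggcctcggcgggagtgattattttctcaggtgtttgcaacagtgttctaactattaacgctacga
HIST1H2AC, chr6:26123922-26124221, plus strand: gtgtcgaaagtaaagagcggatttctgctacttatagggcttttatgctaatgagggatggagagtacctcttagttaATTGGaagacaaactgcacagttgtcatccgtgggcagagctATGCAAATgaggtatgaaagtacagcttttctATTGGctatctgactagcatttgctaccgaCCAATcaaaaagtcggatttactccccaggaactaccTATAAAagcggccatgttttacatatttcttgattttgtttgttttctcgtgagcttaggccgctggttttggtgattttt

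Each holds 4 or 3 CCAAT matches, and each holds a TATAAA that begins 28 or 31 bases before the start. The octamer is present in HIST1H2AC and not in this window of HIST1H2BD. It occurs in 11 of the 27 histone promoters, among them HIST1H2BC and HIST1H2BK, where 1.8% of all promoters hold it. These 11 are not all separate sites, because neighbours on opposite strands share an octamer that is counted for each. Such pairs are HIST1H2AC with HIST1H2BC, HIST1H2AG with HIST1H2BJ, HIST1H2AM with HIST1H2BO and HIST2H2AC with HIST2H2BE. The cAMP response element TGACGTCA occurs in 4 of the 27, HIST1H2AJ, HIST1H2BK, HIST1H3B and HIST1H4H, where 1.98% of all promoters hold it. The E2F motifs TTTGGCGC and GGCGGGAA were in none of the 27 and in 0.659% and 3.18% of all promoters. Of the 4 genes with the cAMP response element, 3 had intervals that included 0, and HIST1H2AJ was tested only because its DMSO values passed the filter. HIST1H3B and HIST1H4H had few reads, with means of 8.27 and 19.0. Their intervals, from -0.23 to 1.66 and from -0.91 to 0.47, were too wide to show a small change. HIST1H2BK was called higher after the length and GC correction, as given above.

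The 19 replication-dependent genes with a mean under 100 together had 208.4, 226.3 and 213.5 summed normalized counts in DMSO and 242.6, 228.7 and 201.6 in BRL-50481, so that the groups overlapped. The most abundant, HIST2H2BE, an H2B whose annotated transcript runs on past the stem-loop, had 40.7, 48.0 and 29.6 in DMSO and 46.3, 42.3 and 23.3 in BRL-50481, with an interval from -0.72 to 0.50. HIST1H1E, a linker histone, had a log2 fold change of 0.28 with an interval from -0.43 to 0.99. The H4 genes HIST1H4H and HIST1H4C had intervals from -0.91 to 0.47 and from -0.74 to 0.70.

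The other genes with few reads gave wide intervals. HIST2H2AC, HIST2H2BA and HIST1H2BN had mean normalized counts of 12.4, 11.8 and 11.1 and intervals that included 0. So did HIST1H2AG, HIST1H2AM, HIST1H2BJ, HIST1H2BO, HIST1H3C, HIST1H3H and HIST1H3J, with means from 4.66 to 10.7, and exons of HIST1H2AM and HIST1H3J overlap on the same strand. The untested H4 genes HIST1H4B and HIST4H4 had means of 4.004 and 2.67. HIST1H3B, an H3, had no overlap between its groups (7.94, 4.90 and 5.11 against 9.06, 8.06 and 14.5), and its adjusted p was 0.179 by limma. HIST1H2AJ, an H2A, had 6, 8 and 5 reads in DMSO and 0, 2 and 1 reads in BRL-50481. Over each group this is 19 against 3 reads. As it entered the test through its DMSO libraries alone, its difference is given as a description and its call is not read further. Only 35.9% of its 76-base windows are unique in the genome.

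Summed over genes, the replication-dependent histone mRNAs were a small part of every library and did not separate the groups. Of each 1000000 reads on genes they took 102.7, 119.8 and 114.6 in DMSO and 117.4, 116.0 and 115.1 in BRL-50481. As summed normalized counts they were 3342, 3924 and 3743 in DMSO and 3633, 3596 and 3576 in BRL-50481, where the groups overlapped through DMSO replicate 1 and the other controls lay above every treated library. The 9 variants took 2576, 2806 and 2828 in DMSO and 3037, 2935 and 3044 in BRL-50481, so that all treated libraries were above all controls by this scale. By size factors the summed normalized counts of the variants were 83837, 91948 and 92342 in DMSO and 93999, 90973 and 94574 in BRL-50481, and the groups overlapped. Both sums are weighted by H1F0, which was higher in BRL-50481. It made up 37.8% to 38.6% of all histone gene counts in DMSO and 47.5% to 48.4% in BRL-50481. Among the 9 variants 3 were called higher and 2, H2AFZ and H3F3B, lower, so the sums do not describe each gene.

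Per kilobase of canonical transcript, H2AFZ was the highest histone gene in DMSO, at 22492 ± 1614 normalized counts per kb (SD, n = 3), above H1F0 at 16079 ± 719 and H3F3B at 6059 ± 231. In BRL-50481 the order of the first 2 was turned, with H1F0 at 21107 ± 630 and H2AFZ at 14319 ± 193. HIST1H2BK (2270 ± 234), HIST1H1C (2200 ± 177), H1FX (2122 ± 309) and H2AFJ (2017 ± 298) followed H2AFY (3465 ± 103) in DMSO and did not differ among themselves beyond their spread. Lower were H2AFV at 1574 ± 37.2, H2AFX at 1375 ± 250 and HIST1H2BD at 1111 ± 105, where the spread of H2AFX overlapped that of each of the others. HIST1H2AC stood at 351 ± 19.0, and the remaining genes at 50.5 or less. These levels rest on GENCODE lengths, while the authors counted on another annotation.

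Genes that make, process, turn over and deposit histones were examined next, as 6 lists of 78 genes in all. Of these, 12 were higher and 40 lower in BRL-50481, with a median log2 fold change of -0.19 against 0.01 over all genes tested. These 12 and 40 of 78 stand beside 28.9% higher and 29.8% lower over all genes tested, and the same shares are the background for each list. That background includes genes with few reads, whereas the lowest mean normalized count among the 78 was 288.9. Of all genes with a mean of at least 100, 66.9% were called in either direction. With 26 of the 78 not called, the share called here was near that. The first list holds genes that activate histone transcription at the entry to S phase. There, 5 of 6 were lower, with a median of -0.46. NPAT, the coactivator of the replication-dependent clusters, had 2514, 1981 and 2024 in DMSO and 1808, 1744 and 1644 in BRL-50481 (log2 fold change -0.32, SE 0.083, adjusted p = 0.00474 by limma). Without DMSO replicate 1, the highest control, the log2 fold change of NPAT was -0.21 (adjusted p = 0.00057), and in limma without a trend the adjusted p was 0.0511, the highest over its alternatives.

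CCNE2 and CCNE1, the E-type cyclins whose kinase phosphorylates NPAT, had log2 fold changes of -1.90 and -0.86, HINFP, the activator of H4 genes, of -0.60 and CDK2, the kinase itself, of -0.31. All 4 were called lower.

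In the list of genes for 3′ end formation of histone mRNA, 8 of 11 were lower, with a median of -0.24. Among these calls, LSM10, LSM11 and NCBP1 were called in 8, 12 and 9 of 18 alternatives. In limma without a trend their adjusted p-values were 0.105, 0.0646 and 0.0934. SLBP, which binds the stem-loop and follows the mRNA from processing to translation, had 2816, 3119 and 3132 in DMSO and 1700, 1658 and 1722 in BRL-50481. No treated library came near a control, and SLBP fell by 0.83 (SE 0.058, adjusted p = 9.76e-08 by limma). ZNF473, a zinc finger protein of the processing complex, fell by 0.83, and the log2 fold changes of NCBP2 and SRRT, of the cap-binding complex, were both -0.64. CPSF2, a subunit of the cleavage factor, had a log2 fold change of -0.02 (SE 0.058), which became -0.28 after the length and GC correction (adjusted p = 1.21e-05 by limma).

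**Figure D4:**
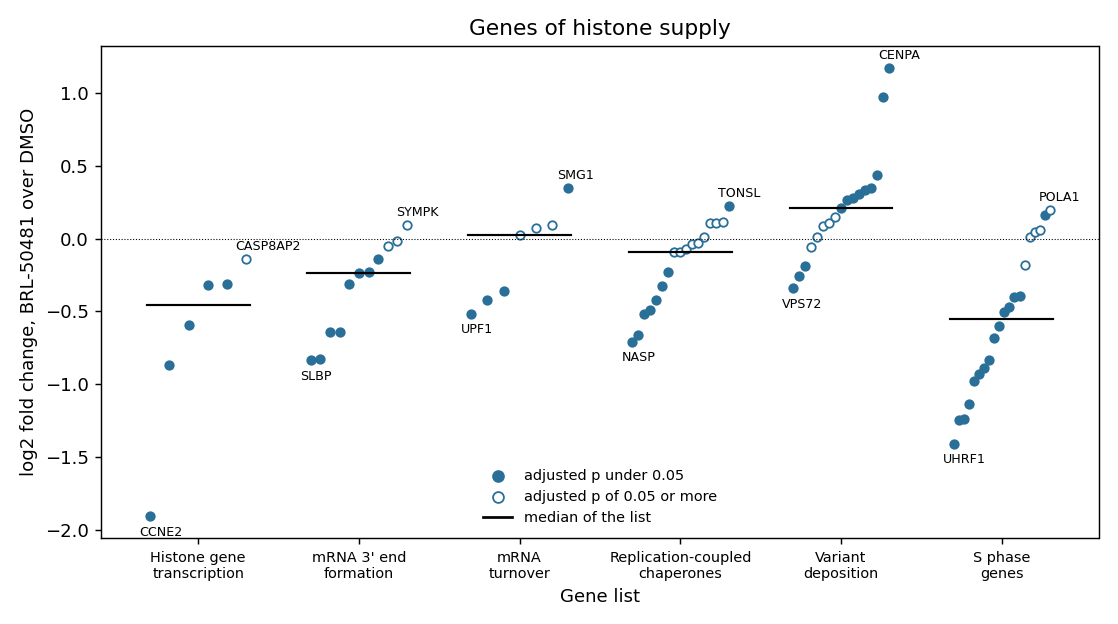
Log2 fold change (y axis, BRL-50481 over DMSO) of each gene in the 6 lists of histone supply (x axis), filled where the adjusted p was under 0.05, with the median of each list as a bar. The lowest and highest gene of each list is named, from CCNE2 at -1.90 to CENPA at 1.17.

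Turnover of histone mRNA was split. UPF1, the helicase that SLBP recruits at the end of S phase, LSM1 and the exonuclease ERI1 were lower, with log2 fold changes of -0.51, -0.42 and -0.36, whereas SMG1, a kinase of UPF1, was higher by 0.35 with groups that overlapped through DMSO replicate 1 (5500, against 3567 and 3916 in the other controls). Without DMSO replicate 1 the log2 fold change of SMG1 was 0.53. Its call held in 10 of 18 alternatives, with adjusted p-values up to 0.407, and the value was 0.22 without DMSO replicate 2 and 0.05 after the length and GC correction. In all, 1 of 7 genes was higher and 3 were lower, with a median of 0.02 that became -0.20 after that correction. A share of 3 of 7 lower is not far from the background.

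Among chaperones that carry newly made H3, H4, H2A and H2B to replicating DNA, 7 of 17 were lower and 1 was higher, with a median of -0.09, a share lower that is not far above the background. NASP, which protects free H3 and H4, had 7671, 7767 and 7997 in DMSO and 4756, 4612 and 4997 in BRL-50481. It fell by 0.71 (SE 0.048, adjusted p = 8.73e-08 by limma). HAT1, which acetylates new H4, fell by 0.66, and DNAJC9, an H3-H4 cochaperone, fell by 0.52. The most abundant members, NAP1L1 and SSRP1, had log2 fold changes of -0.09 and -0.07 and were not called. Both were called lower without DMSO replicate 1 (-0.11 and -0.10) and after the length and GC correction (-0.36 and -0.09).

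Deposition of variants was the list with most genes higher, 9 of 17, with 3 lower and a median of 0.21. After the length and GC correction, 8 were higher and 4 lower, and the median was 0.099. CENPA, the H3 variant of centromeres, is no member by the rule on symbols and was measured beside its chaperone HJURP. CENPA had 229.2, 246.9 and 307.5 in DMSO and 619.1, 524.8 and 610.7 in BRL-50481. Each treated library had more than the highest control, and the log2 fold change was 1.17 (SE 0.11, adjusted p = 1.89e-06 by limma). HJURP was higher by 0.97. Of the factors that place H2A.Z, SRCAP was higher by 0.35, or 0.19 after that correction. VPS72, which binds H2A.Z in both complexes, fell by 0.34. ANP32E, which removes H2A.Z, was at 0.09 and not called. Without DMSO replicate 1 ANP32E was at 0.12, with an adjusted p of 0.0103 by limma. INO80, also in this list, was higher by 0.44 (adjusted p = 2.31e-05 by limma) and was called in 18 of 18 alternatives. EP400 was higher by 0.28 with groups that overlapped through DMSO replicate 1, and by 0.42 without that library. Its call held in 11 of 18 alternatives, with adjusted p-values up to 0.143, and the value was 0.18 without DMSO replicate 2 and 0.10 after the correction. ATRX, which places H3.3 with DAXX, was higher by 0.30, or 0.06 and not called after the correction (adjusted p = 0.179), and DAXX fell by 0.19.

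The S phase list had 14 of 20 genes lower and 1 higher, with a median of -0.55. UHRF1, PCNA, MCM2 and MCM3, of maintenance methylation, the sliding clamp and the replicative helicase, had log2 fold changes of -1.41, -1.25, -1.24 and -1.14, and MCM7 one of -0.84. RRM1, a subunit of ribonucleotide reductase, was at 0.05 and not called. These S phase genes and SLBP were lower in the same libraries in which the summed replication-dependent histone counts overlapped with those of the controls. As normalized counts, that overlap came through DMSO replicate 1 (3342). The other controls, at 3924 and 3743, lay above the treated libraries, at 3576 to 3633. In each library 93.3% or more of the sum came from 4 genes, among them HIST1H2BD, which fell. The part that S phase cells have in the histone values was not tested.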

How the data were processed

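RNA sequencing of 6 libraries was analysed from 1 table that the authors deposited. According to the Methods and the submitters' processing notes, the single-end, 76-base reads were mapped to hg38 by STAR 2.7.1a and assigned to genes of the UCSC annotation by htseq-count, set for the reverse strand, before DESeq2 1.28 scaled the libraries. With the default settings, reads with several alignments are not counted. The deposited signal is the read count of a gene divided by the size factor of its library, with its average over the libraries in a further column. The log2 fold change, its standard error, the test statistic score and the p-value deposited by the authors come from their own comparison and were not used. In each library 100% of values were whole multiples of 1 smallest step, and dividing by that step gave back the reads.

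The main test was limma 3.58.1 in R 4.3.3 (eBayes with a trend) on log2-transformed normalized counts plus 1, after the filter of the Methods, with Benjamini-Hochberg adjustment over 15246 genes and groups as the only term. A log2 fold change on this scale understates the change of genes with few reads. The labels call the libraries replicates, and the series record calls them biological. Alternatives were edgeR 4.0.16 and DESeq2 1.42.0 on the recovered reads, pseudocounts of 0.5 and 4, other filters, scalings and trends, a replicate block and leaving out each library. A loess correction for transcript length and GC content (span 0.5) was added after the data had been seen. The procedures were tested on simulated data.

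The members and gene lists were chosen with earlier results of these data known. The genes named are the variants, the 12 most abundant replication-dependent genes, the called ones, and from each list the 2 most abundant and the called genes with an absolute log2 fold change over 0.5, at most 6 a list, with SLBP, NPAT and CENPA always. HIST1H3B and the other replication-dependent genes with few reads, LSM1, LSM10, LSM11, NCBP1, ERI1, SRCAP, EP400, INO80, VPS72 and DAXX were chosen after their values were seen. Positions are those of GENCODE release 44 and promoters those of RefSeq (GRCh38.p14), which held 27 of the 32 genes. Figures were drawn with matplotlib 3.10.9 in Python 3.11.15.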

Additional observations from a re-analysis of the deposited data

How the results depend on the processing

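The calls of H1F0, H2AFV, H2AFZ and HIST1H2BD kept their direction and side of the threshold in every alternative run. Histone genes higher numbered 4 in the main analysis and 7 with the length and GC correction, with or without the replicate block. Replication-dependent genes higher numbered 1 in the main analysis, 2 with a pseudocount of 4, median centring or limma without a trend, 4 with the length and GC correction, 3 with that correction and the block, and 0 with quantile normalization in limma, where 1 had an unadjusted p under 0.05 and edgeR and DESeq2 each called 1. Leaving out single libraries gave 0 to 2, the 0 being without BRL-50481 replicate 3, where 1 had an unadjusted p under 0.05. Replication-dependent genes lower numbered 2, 1 when genes below a mean of 20 were left out, HIST1H2AJ among them, and 1 to 2 without single libraries, since HIST1H2AJ was lost without DMSO replicate 2 or BRL-50481 replicate 1. Variant genes lower numbered 2, 1 with quantile normalization or limma without a trend, and 1 to 3 without single libraries. The median log2 fold change of the replication-dependent genes was 0.04, -0.014 with quantile normalization, 0.157 with the length and GC correction (-0.036 over all genes), and -0.052 to 0.152 without single libraries. The median of the variants was 0.02, and 0.079 with quantile normalization, 0.14 with the length and GC correction with or without the block, and -0.052 to 0.152 without single libraries. Genes of histone supply numbered 8 to 18 higher and 35 to 41 lower without single libraries, with 18 higher without DMSO replicate 1 and 8 without BRL-50481 replicate 2. The cause of these changes was not tested.

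Reversals of sign were seen for genes that were not called. H2AFY became 0.019 with quantile normalization and 0.0019 with median centring, and HIST1H4C 0.013 with median centring and 0.10 with the length and GC correction, with or without the block. Without single libraries, H2AFX ran from -0.11 to 0.15, HIST1H1C from -0.052 to 0.052, HIST1H2BK from -0.021 to 0.125, HIST2H2BE from -0.30 to 0.19, HIST1H1E from -0.0047 to 0.52, HIST1H4C from -0.29 to 0.19 and HIST2H2BA from -0.35 to 0.28.

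The replicate numbers are shared between the groups, but same-numbered libraries deviated together with correlations of 0.121, 0.104 and 0.0514, which do not all exceed 0.1, and BRL-50481 replicate 3 correlated best with DMSO replicate 2 (0.0607). They were therefore not treated as pairs. With the replicate block, 4 histone genes were higher and 4 lower, as without it, and over all genes 4440 were higher and 4589 lower against 4400 and 4546. Depth limits the 18 tested genes with a mean under 100.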
